A study of Mus musculus with 6 samples.

Results

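The genes of glycolysis and of the response to low oxygen were examined in tumour cells from mouse skin, as 32 genes in 2 sets: 22 enzymes and transporters of glucose and lactate handling, and 10 genes of oxygen sensing and of the hypoxia response. A gene was taken as measured where a probe set of the array carried its symbol and no other, and where several did, the brightest on average stood for it. This gave 29 of the 32 genes, 19 of the first set and 10 of the second, among 18193 genes in all. Gpi1 and Eno1 were not analysed here, and Gapdh was represented only by probe sets that carry several symbols and by control probe sets, which are described separately.

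EKO mice, deficient in E-FABP, a fatty acid carrier of epidermis and the product of Fabp5, were compared with wild-type (WT) mice, 3 in each group. Skin tumours had been induced in all 6 mice by the mutagen DMBA and the tumour promoter TPA, given over 5 months. Single cells were released from the tumours by digestion, and their RNA was read on 1 Affymetrix 3′ array per mouse. The sources used here do not give the strain, the age of the mice or how Fabp5 was disrupted in EKO mice. The sample labels call the material keratinocytes whereas the design text calls it tumour cells, and no sorting step is given in either.

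Glycolysis splits glucose into pyruvate and yields ATP without oxygen, and lactate dehydrogenase then turns pyruvate into lactate, which monocarboxylate transporters carry across the membrane. When oxygen is short, the prolyl hydroxylases encoded by the Egln genes no longer mark the subunits HIF1A and EPAS1 for destruction, and the stabilised factors raise transcription of most glycolytic enzymes, of Slc2a1 and of genes such as Car9 and Bnip3. Squamous tumours and wounded epidermis are known for high glucose uptake and for hypoxic zones.

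The log2 values had a median of 5.41 to 5.43 on each array, and the arrays correlated with r between 0.988 and 0.994. Fabp5 matched the labels, with 8.20, 8.30 and 7.98 in EKO replicates 1, 2 and 3 against 14.82, 14.94 and 14.80 in WT replicates 1, 2 and 3 (log2 difference -6.69, limma adjusted p = 1.04e-06). Keratinocyte markers had summed log2 levels of 16.77 to 16.98 in EKO and 16.80 to 16.96 in WT tumours, with Krt14, Krt10 and Dsp the brightest of the 9 measured. The signal at the 3′ end of Gapdh exceeded that at its 5′ end by 1.35, 1.21 and 0.72 in EKO replicates 1, 2 and 3 and by 0.88, 0.86 and 0.77 in the WT replicates, a sign of RNA length, while the same log2 difference for Actb ran from 1.58 to 1.75 in EKO and from 1.46 to 1.79 in WT tumours.

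No gene of either set passed the test between EKO and WT tumours. Differences are given on the log2 scale as EKO minus WT, and they ran from -0.85 for Ldhb to 0.71 for Pfkfb3. The limma adjusted p of the 29 genes ran from 0.546 to 0.999. Of all genes, 0.0055% passed an adjusted p of 0.05, a share that is 1 gene, Fabp5. At an unadjusted p under 0.05 there were 3 of the 29 genes, Pfkfb3 and Ankrd37 on the higher side and Ldhb on the lower side, where 7.13% of all genes met this limit (3.44% higher and 3.7% lower). The 3 EKO values lay apart from the 3 WT values for Pfkfb3, Hk2 and Ankrd37, all higher in EKO, against 12% of all genes in either direction, 5.78% higher and 6.19% lower. This holds for the brightest probe set of each gene. Among the 68 probe sets of the 29 genes, dimmer ones of Ldhb, Aldoa, Pdk1 and Hif1a were lower in EKO without overlap. The share without overlap over all probe sets was not computed, so these have no matching background and are given as description only.

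By their means, 11 of 19 enzymes and transporters were higher in EKO tumours and 8 lower, and 5 of 10 hypoxia response genes were higher and 5 lower, against 50% higher among all genes. The median difference was 0.023 for the enzymes and transporters, 0.0082 for the hypoxia response genes and 0.00014 for all genes. Each set held larger differences of both signs around a median near 0. The numbers of higher and lower means depended on WT replicate 3: without it 10 of the 29 genes were higher and 19 lower, against 48.8% higher among all genes, with medians of -0.090 and -0.12 for the 2 sets.

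**Figure D1:**
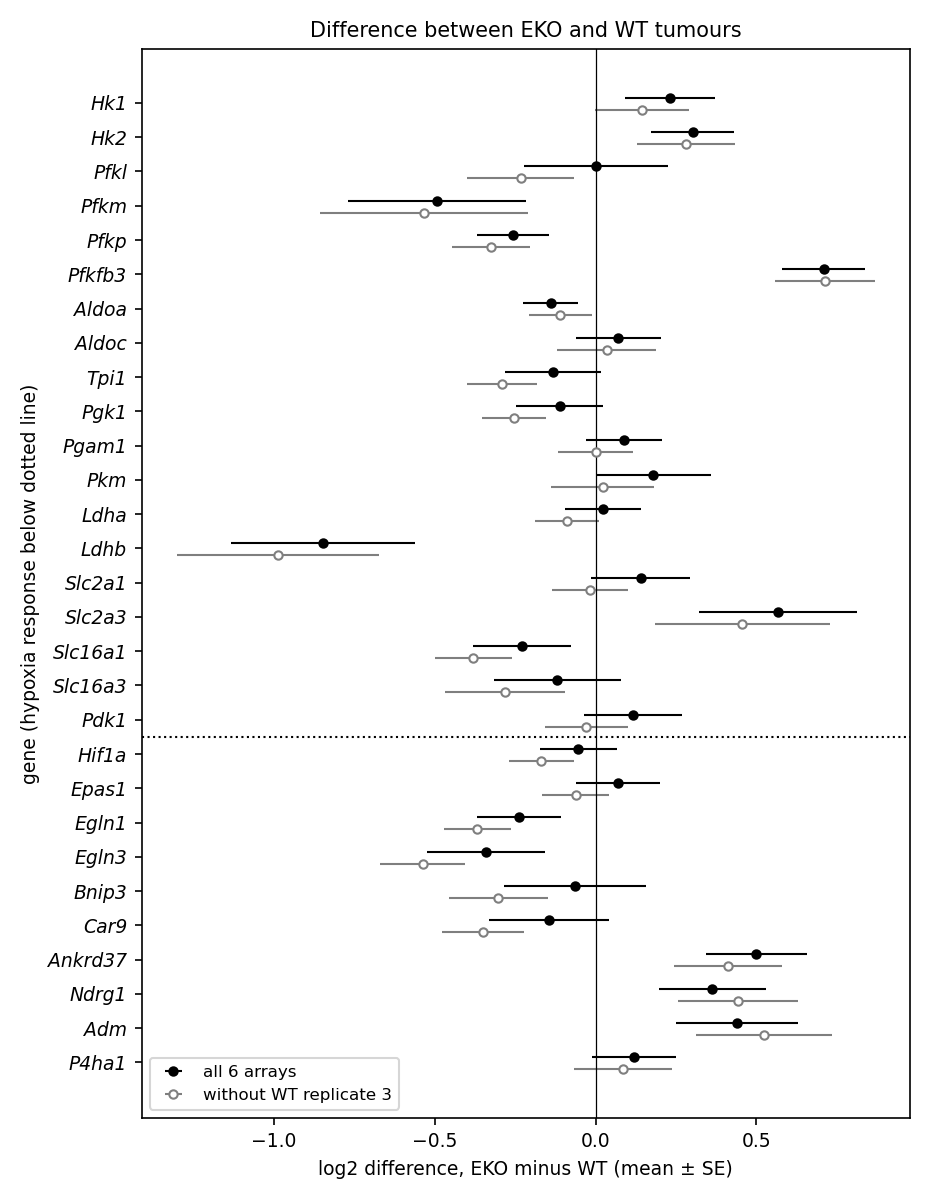
Log2 difference between EKO and WT tumours (x axis, EKO minus WT, mean ± SE) for the 29 measured genes, with all 6 arrays (filled) and without WT replicate 3 (open). Pfkfb3 lies farthest to the right at 0.71 and Ldhb farthest to the left at -0.85, and most open points lie to the left of the filled ones.

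Binding sites of the HIF factors hold the letters ACGTG or GCGTG, and sequences upstream of the genes on which the results turn are shown so that these letters can be seen. RefSeq (GRCm38.p6) gave promoter windows for 29 of the 32 genes, all but Slc2a3, Epas1 and Ndrg1, and the 250 bases before each listed start were searched on both strands, that is for ACGTG or CACGT and for GCGTG or CACGC. The letters ACGTG occurred before at least 1 start of 18 of the 29 genes (62.1%), against 18.5% of the 27025 genes in the table. By set, that was 11 of 21 enzymes and transporters and 7 of 8 hypoxia response genes, and GCGTG was found for 19 of the 29 (65.5%, against 30.9% of all genes). The palindrome CACGTG, which holds ACGTG on both strands and is also the E-box of MYC and USF factors, occurred for 6 of the 29 and for 6.86% of all genes. Such a match is a description of the letters and does not show a site in use. The genes were listed for glycolysis and the response to low oxygen, which HIF factors drive, so their higher shares are no independent result. A gene with several listed starts also had more bases searched. Capitals mark ACGTG or CACGT in the windows below, each written 5′ to 3′ on the gene's strand and ending at the base before the start. Ldha and Ldhb, the subunits of lactate dehydrogenase, are set beside each other, Pfkfb3 has the largest positive difference of the 29 genes, and Pgk1 and Bnip3 are among the genes that were lowest in WT replicate 3.
Pfkfb3 (chr2:11502091-11502340, minus strand): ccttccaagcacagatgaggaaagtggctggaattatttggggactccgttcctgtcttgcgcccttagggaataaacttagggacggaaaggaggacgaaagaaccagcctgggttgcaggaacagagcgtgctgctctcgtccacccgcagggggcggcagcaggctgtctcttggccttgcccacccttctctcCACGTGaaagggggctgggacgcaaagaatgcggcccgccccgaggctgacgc
Ldha (chr7:46845554-46845803, plus strand): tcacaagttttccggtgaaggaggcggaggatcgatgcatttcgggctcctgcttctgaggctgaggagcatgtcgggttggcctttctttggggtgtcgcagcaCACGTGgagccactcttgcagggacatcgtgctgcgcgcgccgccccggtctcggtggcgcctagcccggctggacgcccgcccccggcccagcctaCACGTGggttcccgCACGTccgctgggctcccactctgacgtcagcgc
Ldhb (chr6:142507958-142508207, minus strand): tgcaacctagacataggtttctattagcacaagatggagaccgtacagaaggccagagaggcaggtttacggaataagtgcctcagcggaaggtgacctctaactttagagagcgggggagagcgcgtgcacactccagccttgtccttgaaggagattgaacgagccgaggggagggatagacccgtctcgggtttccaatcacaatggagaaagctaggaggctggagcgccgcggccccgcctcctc
Pgk1 (chrX:106186850-106187099, plus strand): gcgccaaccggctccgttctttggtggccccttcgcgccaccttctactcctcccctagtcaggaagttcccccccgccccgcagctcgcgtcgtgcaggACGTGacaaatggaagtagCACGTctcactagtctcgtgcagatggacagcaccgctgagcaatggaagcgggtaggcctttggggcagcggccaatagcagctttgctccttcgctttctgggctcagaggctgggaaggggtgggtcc
Bnip3 (chr7:138909507-138909756, minus strand): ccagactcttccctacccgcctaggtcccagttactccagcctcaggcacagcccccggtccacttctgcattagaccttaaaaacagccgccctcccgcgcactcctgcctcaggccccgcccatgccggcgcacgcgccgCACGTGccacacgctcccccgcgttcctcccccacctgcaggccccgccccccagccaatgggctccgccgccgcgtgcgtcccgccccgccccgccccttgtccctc
This Ldha window, 1 of 2 listed for the gene, held 3 separate places with ACGTG or CACGT, 2 of them CACGTG, and no GCGTG or CACGC, whereas the Ldhb window held no ACGTG or CACGT and 1 GCGTG. The window of Bnip3 and this window of Pfkfb3, 1 of 2 listed for that gene, held 1 CACGTG each, and that of Pgk1 held an ACGTG and a CACGT, whose first bases lay at -150 and -131 from the start.

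Hexokinases trap glucose in the cell by phosphorylation. Hk2, the form bound to mitochondria in many tumours, had log2 values of 9.77, 9.82 and 10.19 in EKO replicates 1, 2 and 3 against 9.58, 9.71 and 9.59 in the WT replicates, a difference of 0.30 (SE 0.13, limma adjusted p = 0.698). Every EKO value was above every WT value, but the nearest pair lay only 0.060 apart, and without EKO replicate 3 the difference was 0.17. Hk1, the constitutive form, had 8.87, 8.99 and 9.30 in EKO against 8.90, 8.92 and 8.65 in WT tumours, with overlapping groups and a difference of 0.23 (adjusted p = 0.769), or 0.11 without EKO replicate 3. EKO replicate 3 had the highest value of both hexokinases among the 6 arrays.

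Phosphofructokinase, which commits sugar to glycolysis, has liver, muscle and platelet forms encoded by Pfkl, Pfkm and Pfkp, and Pfkfb3 makes the sugar bisphosphate that activates it. Pfkfb3 had log2 values of 7.37, 7.26 and 7.73 in EKO replicates 1, 2 and 3 against 6.71, 6.76 and 6.75 in the WT replicates, with means of 7.45 ± 0.24 and 6.74 ± 0.028 (SD, n = 3 each). The gap between the groups, 0.50, was wider than the range of either group. Its difference of 0.71 (SE 0.13), a ratio of 1.63 between the means, ranked 28 among the 18193 genes by unadjusted p (0.000899) and did not pass the adjustment (limma adjusted p = 0.546). It lay between 0.57 and 0.80 when each array was left out in turn, and its adjusted p lay between 0.125 and 0.998 over 15 alternatives. The dimmer Pfkfb3 probe set read from 3.96 to 4.29 in EKO and from 3.91 to 4.15 in WT tumours, at about the lower quartile of the arrays, where differences are narrowed, and had a difference of 0.078.

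Pfkp and Pfkm had lower EKO means, and the means of Pfkl were equal. Pfkp, the platelet form, had 10.13, 10.43 and 10.25 in EKO against 10.64, 10.55 and 10.39 in WT tumours, a difference of -0.26 (SE 0.11, adjusted p = 0.704), with EKO replicate 2 inside the WT range. Pfkl had 7.54, 7.75 and 8.03 in EKO against 8.12, 7.88 and 7.30 in WT tumours, the same mean of 7.77 in both groups. Pfkm, the muscle form, had 7.40, 7.35 and 7.37 in EKO against 8.52, 7.30 and 7.78 in WT tumours (difference -0.49, adjusted p = 0.759). The spread of Pfkm thus lay in the WT arrays, with SDs of 0.025 in EKO and 0.61 in WT tumours.

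Skeletal muscle markers had the same order as Pfkm among the WT arrays. All 15 markers of that list had a lower mean in EKO tumours, with Myh1, Acta1 and Tnnc2 the brightest, each of the 15 was above the lower quartile in some array, and their summed log2 levels ran from 10.84 to 11.96 in EKO and from 10.67 to 13.75 in WT tumours. Their mean deviation from the 6-array mean was 0.13, -0.66 and -0.84 in EKO replicates 1, 2 and 3 and 1.95, -0.99 and 0.42 in WT replicates 1, 2 and 3. Macrophage and monocyte markers shared that order among the WT arrays, with 0.36, -0.067 and 0.25 in WT replicates 1, 2 and 3. Among the EKO arrays Pfkm did not follow the muscle markers and stayed at 7.40, 7.35 and 7.37. Without WT replicate 1 the difference of Pfkm was -0.17. Adipocyte markers, led by Adipoq, Retn and Cidec, had a similar order, with lower EKO means for all 4 measured and sums of 8.40 to 9.74 in EKO and 8.30 to 10.31 in WT tumours. In bulk samples fewer cells of a type and less RNA per cell cannot be told apart, and the part of muscle RNA in the values of Pfkm was not tested.

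**Figure D2:**
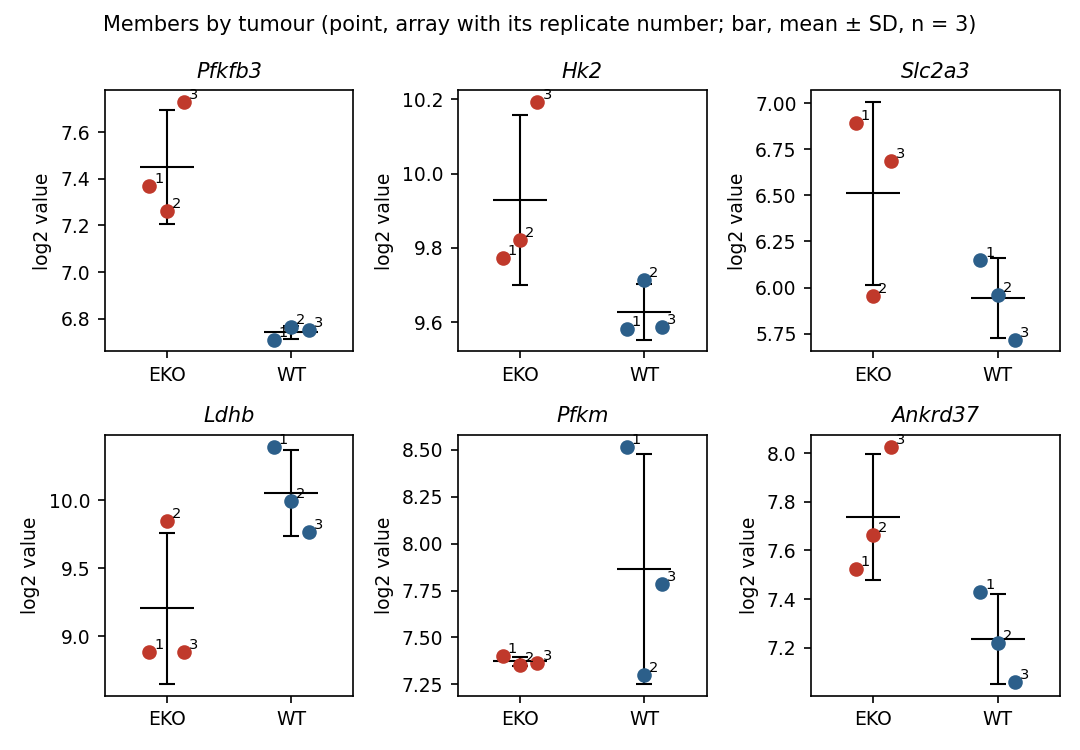
Log2 values of 6 genes (y axis, a separate scale in each panel) in EKO and WT tumours, each point an array with its replicate number and bars mean ± SD (n = 3), the genes having been chosen after their values were seen. Pfkfb3, Hk2 and Ankrd37 have all EKO points above all WT points, while EKO replicate 2 lies within the WT range for Slc2a3 and Ldhb.

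The enzymes from aldolase to pyruvate kinase had small differences. Aldoa, Tpi1 and Pgk1 had differences of -0.14, -0.13 and -0.11, and Aldoc, Pgam1 and Pkm had 0.071, 0.088 and 0.18, with adjusted p from 0.769 to 0.927. Tpi1, triosephosphate isomerase, read 12.37, 12.48 and 12.61 in EKO replicates 1, 2 and 3 against 12.77, 12.79 and 12.31 in the WT replicates. Pgam1, phosphoglycerate mutase, read 11.15, 11.19 and 11.42 in EKO against 11.24, 11.27 and 10.99 in WT tumours. Both genes were lowest of all in WT replicate 3. Pgk1, phosphoglycerate kinase, read 12.89, 12.85 and 13.01 in EKO replicates 1, 2 and 3 against 13.18, 13.17 and 12.75 in the WT replicates. Pkm, pyruvate kinase, read 10.61, 10.90 and 11.12 in EKO against 10.83, 10.88 and 10.38 in WT tumours. In these genes, too, WT replicate 3 was the lowest of the 6 arrays and EKO replicate 3 was the highest EKO value. Aldoa, the main aldolase of most tissues, read 12.41, 12.47 and 12.37 in EKO against 12.58, 12.47 and 12.62 in WT tumours, and Aldoc, known from brain, ranged from 8.20 to 8.30 in EKO and from 7.98 to 8.46 in WT tumours. The 5 Aldoa probe sets did not share a sign, 4 being lower in EKO and the dimmest higher (0.072). Of the lower ones, those with differences of -0.18 and -0.26 had no overlap between the groups. Their limma unadjusted p was 0.071 and 0.023, and their adjusted p over all probe sets was 0.741 and 0.658. Pgk1, Tpi1, Aldoa and Ldha have similar processed copies elsewhere in the genome, so their levels are uncertain where a probe set also reads a copy.

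Gapdh, the enzyme between these steps, had no probe set with its symbol alone other than control probe sets, which were admitted after the data were seen. The probe set at its 3′ end gave 12.39, 12.67 and 13.01 in EKO replicates 1, 2 and 3 against 12.89, 12.80 and 12.62 in the WT replicates, a difference of -0.079 (SE 0.17, adjusted p = 0.936). The EKO values were more widely spread (SD 0.31 in EKO and 0.14 in WT tumours), and the group ranges overlapped. At the 5′ end the difference was -0.34, with EKO replicate 1 lowest at 11.03.

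Lactate dehydrogenase is a tetramer of the subunits encoded by Ldha, which favours lactate formation, and Ldhb, which favours its return to pyruvate. Ldha had 13.19, 13.11 and 13.26 in EKO replicates 1, 2 and 3 against 13.30, 13.25 and 12.94 in the WT replicates, a difference of 0.023 (SE 0.12, adjusted p = 0.978). Ldhb had 8.88, 9.84 and 8.89 in EKO against 10.39, 9.99 and 9.77 in WT tumours, with means of 9.20 ± 0.55 and 10.05 ± 0.32 (SD, n = 3 each). EKO replicates 1 and 3 lay below the WT range and EKO replicate 2 lay within it. The difference of -0.85 (SE 0.29), a ratio of 0.556, was the largest in size among the 29 genes and did not pass (limma adjusted p = 0.63). Without EKO replicate 2 it was -1.17 (adjusted p = 0.125, the lowest of a range to 0.998 over 15 alternatives), and without WT replicate 1 it was -0.68.

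The other Ldhb probe sets gave the same picture with less overlap. Of the 4 probe sets of Ldhb, the brightest was the 1 with overlapping groups, and the other 3 had EKO values of at most 9.62, 9.63 and 9.57 against WT values of at least 9.87, 9.82 and 9.77. Their differences were -0.83, -0.81 and -0.74, with unadjusted p from 0.00324 to 0.00428 and a limma adjusted p of 0.628 for each over all probe sets. The 4 probe sets measure the same RNA and are no separate evidence.

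Slc2a1 and Slc2a3 encode glucose transporters, the first widespread in epidermis and the second typical of neurons and activated leukocytes. Slc2a3 had 6.89, 5.95 and 6.69 in EKO replicates 1, 2 and 3 against 6.15, 5.96 and 5.72 in the WT replicates, a difference of 0.57 (SE 0.25, adjusted p = 0.704). EKO replicates 1 and 3 lay above all WT values and EKO replicate 2 lay among them. Without EKO replicate 2 the difference was 0.85 (adjusted p = 0.16, the lowest of a range to 0.998 over 14 alternatives) and without EKO replicate 1 it was 0.38. The 3 dimmer probe sets had differences of 0.13, -0.029 and -0.048. Those at -0.029 and -0.048 read below the lower quartile in all 6 arrays, where differences are narrowed. Slc2a1 had 11.84, 12.04 and 12.14 in EKO against 12.01, 12.03 and 11.55 in WT tumours (difference 0.14), and its 3 probe sets gave 0.14, 0.18 and 0.18. Macrophage and monocyte markers, of which Lyz2, Csf1r and C1qa were the brightest, had lower EKO means for 10 of 11 genes. Their summed log2 levels were 11.37 to 11.90 in EKO and 11.83 to 12.22 in WT tumours. Of 8 neutrophil markers 6 had lower EKO means, but the 2 brightest, Cxcr2 (0.16) and Csf3r (0.29), had higher ones, followed in brightness by Camp (-0.028). The neutrophil sums of 8.27 to 8.48 in EKO and 8.30 to 8.40 in WT tumours overlapped. Each marker of these 2 lists was above the lower quartile in some array, and their part in the Slc2a3 values was not tested.

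Slc16a1 and Slc16a3 encode monocarboxylate transporters, the second typical of lactate-exporting glycolytic cells. Slc16a1 had 10.99, 11.27 and 11.09 in EKO against 11.57, 11.42 and 11.04 in WT tumours, a difference of -0.23 (SE 0.15, adjusted p = 0.797). Slc16a3 stayed between the lower quartile and the median of the arrays, at 4.51, 4.41 and 4.81 in EKO against 5.10, 4.62 and 4.37 in WT tumours. Pdk1, the kinase that turns off pyruvate dehydrogenase, had 9.87, 9.94 and 9.84 in EKO against 9.74, 10.08 and 9.48 in WT tumours (difference 0.12). The groups overlapped for these probe sets of all 3 genes, whereas a dimmer Pdk1 probe set was lower in EKO without overlap, at 7.73, 7.82 and 7.57 in EKO against 8.04, 7.98 and 7.83 in WT tumours (difference -0.25, unadjusted p = 0.049, adjusted p = 0.714 over all probe sets). The remaining Pdk1 probe sets had differences of 0.016 and -0.053.

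Among the regulators of the oxygen response, Hif1a had 12.62, 12.63 and 12.47 in EKO replicates 1, 2 and 3 against 12.74, 12.74 and 12.40 in the WT replicates, a difference of -0.054 (SE 0.12, adjusted p = 0.942). HIF1A is set mainly by protein stability, which these arrays do not measure. A dimmer Hif1a probe set had 6.05, 6.26 and 6.43 in EKO against 7.49, 7.09 and 6.61 in WT tumours, a difference of -0.82 without overlap (unadjusted p = 0.0054, adjusted p = 0.628 over all probe sets). The remaining pair had differences of -0.18 and -0.26, so the 4 probe sets shared a sign and differed in size. The sources used here do not say which part of the transcript each reads.

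Epas1, the HIF subunit of endothelial cells among others, had 10.68, 10.58 and 10.65 in EKO against 10.79, 10.61 and 10.30 in WT tumours (difference 0.070). Egln1, the main oxygen sensor, had 9.66, 9.80 and 9.82 in EKO against 10.19, 10.07 and 9.74 in WT tumours (difference -0.24, adjusted p = 0.756). Egln3, a prolyl hydroxylase that HIF itself induces, had 11.37, 11.33 and 11.64 in EKO against 11.90, 12.07 and 11.40 in WT tumours (difference -0.34 with SE 0.18, adjusted p = 0.756). The groups overlapped in each, WT replicate 3 standing lowest of the WT arrays, and the dimmer Egln3 probe set had a difference of 0.079.

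Ankrd37, Adm, Ndrg1 and P4ha1 had higher EKO means. Ankrd37, a HIF target with ankyrin repeats, had 7.52, 7.66 and 8.03 in EKO against 7.43, 7.22 and 7.06 in WT tumours, a difference of 0.50 (SE 0.16, adjusted p = 0.625) without overlap. Adm, which encodes the vasodilator peptide adrenomedullin, had 6.77, 7.02 and 7.44 in EKO against 6.72, 6.39 and 6.81 in WT tumours (difference 0.44, adjusted p = 0.704), or 0.26 without EKO replicate 3. Its other probe set had 6.11, 6.24 and 7.50 in EKO against 6.14, 5.38 and 6.21 in WT tumours, a difference of 0.70 (SE 0.38) with overlapping groups. Ndrg1, a stress response gene of differentiating epithelium, had 10.09, 9.96 and 10.55 in EKO against 9.81, 9.71 and 9.995 in WT tumours (difference 0.36, adjusted p = 0.709), but its 4 dimmer probe sets had differences of 0.30, 0.19, -0.18 and 0.11, and the mean over all 5 gave 0.16. Without EKO replicate 3 the difference of Ndrg1 was 0.19. EKO replicate 3 was the highest of the 6 arrays for these 3 genes. P4ha1, a collagen prolyl hydroxylase, had 6.98, 7.23 and 7.195 in EKO against 7.25, 6.85 and 6.95 in WT tumours (difference 0.12), with overlapping groups.

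Bnip3, a mitophagy receptor, had 10.79, 10.74 and 11.18 in EKO replicates 1, 2 and 3 against 11.22, 11.20 and 10.49 in the WT replicates (difference -0.065, SE 0.22, adjusted p = 0.962). Car9, a carbonic anhydrase widely used as a marker of hypoxic tumour zones, had 5.77, 5.61 and 5.95 in EKO against 6.18, 6.07 and 5.51 in WT tumours (difference -0.15, adjusted p = 0.89). For both genes EKO replicates lay between WT replicate 3 and the other WT arrays. Car9 lay close to the array medians.

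**Figure D3:**
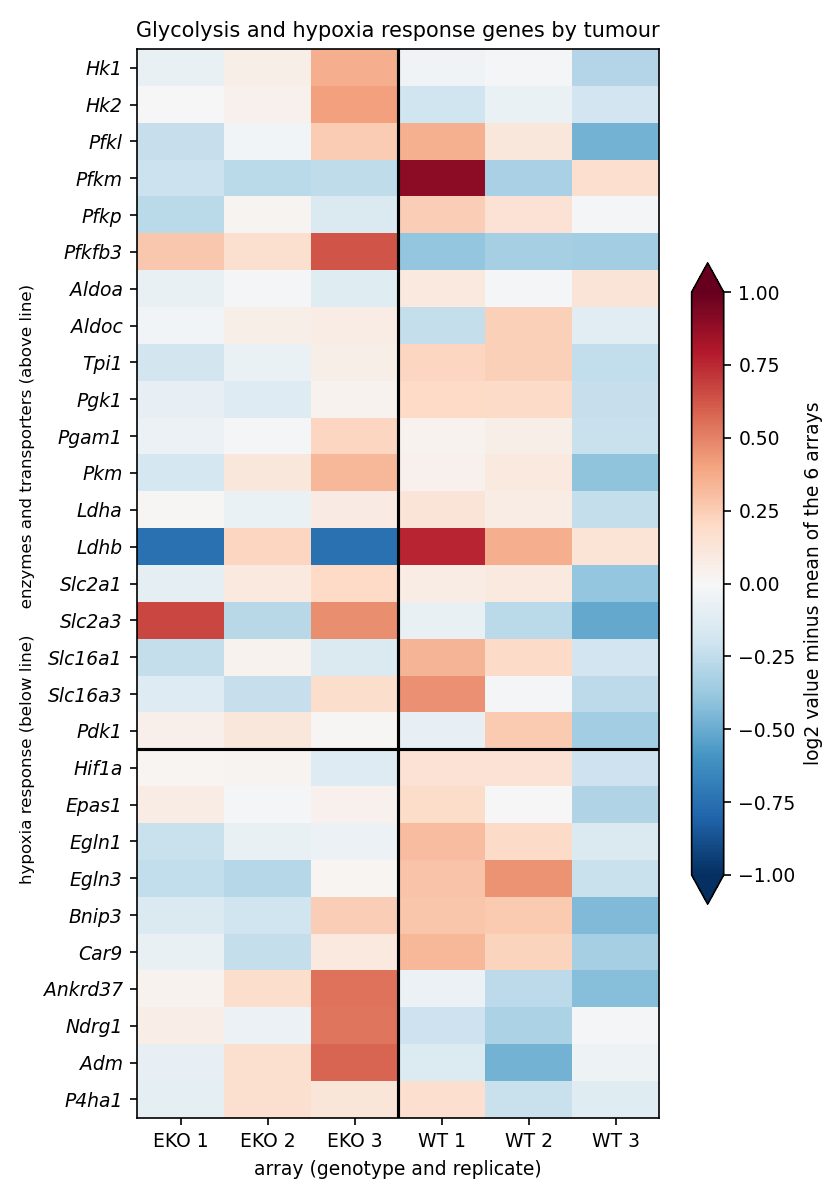
Log2 value of each of the 29 genes in each array minus the gene's mean over the 6 arrays (colour), with EKO arrays left of WT arrays and hypoxia response genes below the horizontal line. WT 3 is blue for most genes of both sets, and Hk1, Hk2, Pfkfb3, Ankrd37, Ndrg1 and Adm are reddest in EKO 3.

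Many of these genes also varied together among tumours of the same genotype, a pattern noticed after the values were seen and described here without a test. WT replicate 3 had the lowest WT value for 21 of the 29 genes (14 of 19 enzymes and transporters, 7 of 10 hypoxia response genes), against 40.4% of all genes. EKO replicate 3 had the highest EKO value for 19 of the 29, against 34.5% of all genes, and both held for 14 genes, against 15.7%. The difference of WT replicate 3 from the mean of WT replicates 1 and 2 had a median of -0.35, from -0.71 for Bnip3 to 0.26 for Adm, where the median over all genes was -0.024. Bnip3, Pfkl, Car9 and Egln3 had the lowest values of this kind, -0.71, -0.70, -0.61 and -0.59.

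Both sets had WT replicate 3 as their lowest array. The mean deviation of the enzymes and transporters from the 6-array mean was -0.084, -0.0086 and 0.10 in EKO replicates 1, 2 and 3 and 0.15, 0.054 and -0.21 in the WT replicates. The hypoxia response genes gave -0.067, -0.036 and 0.20 in EKO and 0.13, 0.00020 and -0.23 in WT tumours. The highest array was WT replicate 1 for the enzymes and transporters and EKO replicate 3 for the hypoxia response genes, so the range within the WT group enclosed the EKO values of the first set and all but EKO replicate 3 in the second.

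Markers of other cells differed in WT replicate 3 as well. All 9 endothelial markers, with Cldn5, Esam and Kdr the brightest, lay below the mean of WT replicates 1 and 2 there (median difference -0.32), and their summed log2 levels ran from 9.83 to 10.04 in EKO and from 9.79 to 10.43 in WT tumours, and each of the 9 was above the lower quartile in some array. Of 9 fibroblast markers, led by Col1a2, Col3a1 and Dcn, 7 lay above that mean in WT replicate 3 (median difference 0.51 over the list), with sums of 14.65 to 15.27 in EKO and 14.70 to 15.53 in WT tumours and no marker of the list below the lower quartile throughout. Of 7 T and B cell markers, led by Cd3g, Cd3d and Cd8a, 6 lay below it, with summed levels of 8.91 to 8.96 in EKO and 8.89 to 9.20 in WT tumours. Erythrocyte markers, of which only Slc4a1, Alas2 and Hba-a1 were measured, had sums of 7.28 to 7.73 in EKO and 6.47 to 7.64 in WT tumours. All 4 adipocyte markers lay above the mean of WT replicates 1 and 2 in WT replicate 3 (median difference 0.64), as did 8 of 11 macrophage and monocyte markers (0.14). Of 9 keratinocyte markers 7 lay below it, by little (-0.052). These counts stand beside 55.1% of all genes below that mean in WT replicate 3, with a median of -0.024. Replicate 3 also had the smallest 3′ to 5′ difference of its group for Gapdh and Actb, in EKO and in WT tumours. The part of these markers and of RNA length in the glycolysis and hypoxia values was not tested.

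**Figure D4:**
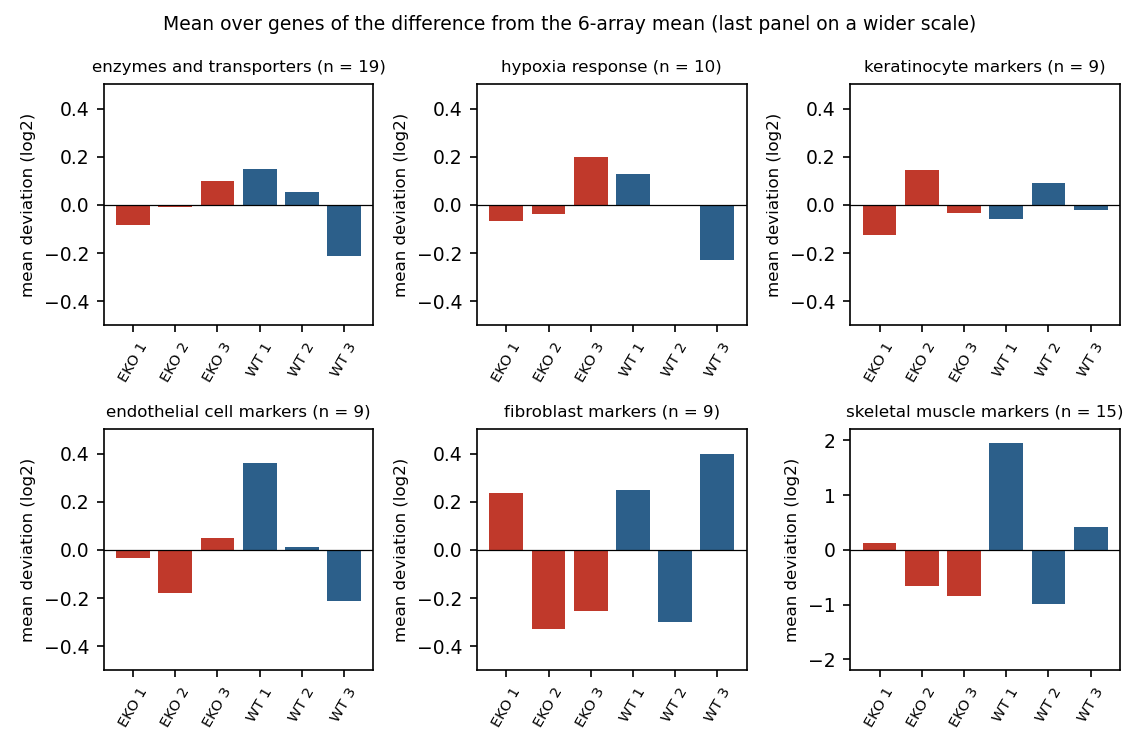
Mean over the genes of a list of the difference from the 6-array mean (y axis, log2), by array, for the 2 gene sets and 4 marker lists, EKO in red and WT in blue. Both gene sets are lowest in WT 3, as are the endothelial markers, while fibroblast markers are highest there, and skeletal muscle markers, on a wider axis, are highest in WT 1.

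Without WT replicate 3, 11 of the 29 genes had an unadjusted p under 0.05, against 9.9% of all genes, 8 lower in EKO (4.88% of all genes) and 3 higher (5.02%). This array was singled out because these genes were low in it, so that leaving it out moves their differences down by construction, and the counts are no evidence of lower levels in EKO tumours. Without EKO replicate 1, 2 or 3 the count was 4, 6 or 2 of 29, against 5.05%, 9.06% and 6.4% of all genes. Without WT replicate 1 or 2 it was 2 or 4 of 29, against 4.61% and 5.91%. None of the 29 passed the adjustment when any array was left out. Egln3 had a difference of -0.54 without WT replicate 3 against -0.34 with it, Slc16a1 had -0.38 against -0.23 and Car9 had -0.35 against -0.15. Pfkfb3 stood at 0.71 in both.

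Other genes of the same pathways were followed in lists written from general knowledge, and 0 of them passed over all genes (limma). At an unadjusted p under 0.05 there were 1 of 21 other glycolysis enzymes, 2 of 12 transport genes, 2 of 10 genes around pyruvate dehydrogenase, 2 of 6 pentose phosphate genes, 0 of 10 glycogen genes, 0 of 10 HIF subunits and sensors and 4 of 29 other hypoxia response genes, against 7.13% of all genes. Of the 21 other glycolysis and gluconeogenesis enzymes 12 were higher by their means and 9 lower (median 0.017), the smallest unadjusted p belonging to Ldhd, a D-lactate dehydrogenase (-0.25), Pck2 of mitochondrial gluconeogenesis (0.21), Fbp2 (0.32) and Eno2, which lay below the lower quartile (-0.18). Of 12 other transport genes 5 were higher and 7 lower. Mpc1, a subunit of the mitochondrial pyruvate carrier, had 10.05, 10.41 and 10.08 in EKO replicates 1, 2 and 3 against 10.83, 10.52 and 10.60 in the WT replicates (difference -0.47, SE 0.13, adjusted p = 0.621). Bsg, the chaperone of the monocarboxylate transporters, had 8.999, 9.24 and 9.38 in EKO against WT values of 9.61, 9.61 and 9.52 (difference -0.38, adjusted p = 0.621). Neither gene overlapped between the groups, nor did Slc2a4, an insulin-regulated glucose transporter, at -0.21, while Slc16a8 stood at 0.18. These were 3 of the 12 transport genes, against 12% of all genes without overlap.

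Of the 10 genes of the pyruvate dehydrogenase complex and its control, 9 had lower EKO means (median -0.14), among them the subunits Dld (-0.26), Pdhb (-0.16) and Pdhx (-0.16), and Pdk2, which lay below the lower quartile (-0.24). Among all genes 50% had a higher EKO mean. The direction was shared by most of the list, but 0 of 10 passed and 2 had an unadjusted p under 0.05, Pdk2 and Dld. The mean deviation of the list from the 6-array mean was -0.067, -0.043 and -0.096 in EKO replicates 1, 2 and 3. It was 0.25, -0.076 and 0.027 in the WT replicates, so WT replicate 2 lay within the EKO range and WT replicate 1 stood highest. Of 6 pentose phosphate genes 4 were higher (median 0.14). Pgd, an NADPH-making dehydrogenase of that pathway, had 11.66, 11.78 and 11.87 in EKO against 11.45, 11.34 and 11.31 in WT tumours (difference 0.40 with SE 0.092, adjusted p = 0.576). Tkt, transketolase, had 13.18, 13.15 and 13.16 in EKO against 12.92, 12.86 and 12.89 in WT tumours (difference 0.27 with SE 0.075, adjusted p = 0.621). Neither overlapped between the groups, as was true of Pgls (0.14), and Rpe had a difference of -0.23. Thus 3 of the 6 genes had no overlap, against 12% of all genes, and this list was not tested as a set. Of the 10 glycogen genes 4 were higher, with Gbe1 at 0.31, Pygb at -0.24, Pgm1 at -0.21 and Pygm, also a muscle marker, at -0.58. Pygm lay below the lower quartile in every EKO array and in WT replicate 2, and was highest at 5.13 in WT replicate 1.

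Other HIF subunits and oxygen sensors had small differences, 6 of 10 higher by their means, with Arnt, the partner of the HIF subunits, at 0.22, the ubiquitin ligases Siah1a and Siah2 at 0.19 and 0.16 and Rbx1 at -0.14. Of 29 other hypoxia response genes 11 were higher and 18 lower by their means (median -0.029). Ddit4, an inhibitor of mTOR signalling that hypoxia and other stresses induce, had 10.36, 10.38 and 10.25 in EKO replicates 1, 2 and 3 against 9.29, 9.48 and 9.75 in the WT replicates, a difference of 0.82 (SE 0.13, limma adjusted p = 0.523) without overlap. Igfbp3, an insulin-like growth factor binding protein, had 10.52, 10.93 and 10.91 in EKO against 9.97, 10.06 and 10.20 in WT tumours (difference 0.70, adjusted p = 0.546). Both genes were highest of the WT arrays in WT replicate 3, unlike most genes of the 2 sets.

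Plod2, a collagen lysyl hydroxylase, had 8.16, 6.94 and 7.57 in EKO against 6.12, 6.12 and 6.94 in WT tumours (difference 1.16 with SE 0.34, adjusted p = 0.621), EKO replicate 2 and WT replicate 3 being nearly equal. Stc2, which encodes a stanniocalcin, had 6.54, 6.36 and 6.67 in EKO against 7.56, 7.19 and 6.70 in WT tumours (difference -0.63 with SE 0.21, adjusted p = 0.63). The groups did not overlap in either gene, but the nearest values were close. Of the 29 other hypoxia response genes 4 had no overlap, against 12% of all genes. Vegfa, not among the genes named by rule and given because it is the best-known HIF target, had a difference of 0.27 with overlapping groups.

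**Figure D5:**
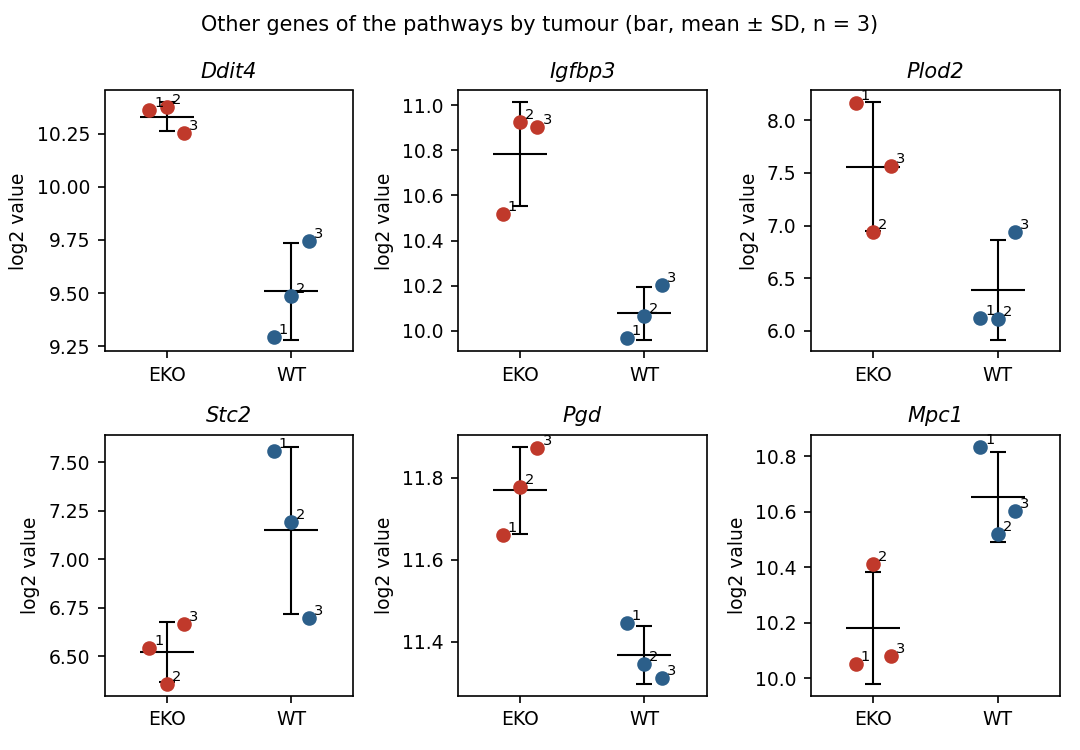
Log2 values (y axis, a separate scale in each panel) of 6 other genes of the pathways in EKO and WT tumours, each point an array with its replicate number and bars mean ± SD (n = 3). The 6 genes were taken from those with the smallest unadjusted p of their lists, which favours groups that lie apart. Ddit4, Igfbp3, Plod2 and Pgd lie higher and Stc2 and Mpc1 lower in every EKO array than in every WT array. Plod2 does so by only 8e-05, and 12% of all genes have no overlap in either direction. None of the 6 passed the test over all genes.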

How the data were processed

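Biotin-labelled cRNA of 3 EKO and 3 WT mice was hybridised to Affymetrix 3′ arrays, per the labels' protocols, and the titles give each sample's group and biological replicate number. The deposited values are log2 signals, for which the submitters' processing notes name RMA and Partek 6.6. RMA equalizes quantiles across arrays and compresses low signals. They were used as deposited, without detection calls or a filter on low values. The design text and the protocols name different RNA kits, and the sources used here name no scan batch.

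Of 45101 probe sets, 64 controls were left out and 34945 carried 1 symbol in the platform annotation (932 several, 9160 none), giving 18193 genes, each read by its brightest probe set on average. limma 3.58.1 under R 4.3.3 tested EKO against WT (lmFit, eBayes, two-sided, Benjamini-Hochberg over all genes, threshold 0.05), and the procedure was tested on simulated data. The 3 arrays per group limit the precision. Genes named are all 29 measured members, the 4 of each pathway list with the smallest unadjusted p and the 3 brightest of a marker list. Vegfa was added after its values were seen. Members and lists were chosen with earlier results of these data known, so no list was tested as a set. The alternatives were array weights, a replicate block, repeated quantile normalization, genes in the upper 50% of means only, robust variances with an intensity trend, centred medians, a mean over probe sets, the second highest probe set, each array left out, all probe sets, a threshold of 0.1 and, added after seeing the data, control probe sets with 1 symbol.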

Additional observations from a re-analysis of the deposited data

How the results depend on the processing

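No measured glycolysis or hypoxia gene passed the threshold under any alternative that was run, while the number of all genes past it was 1 with all arrays, 1 to 42 with each array left out in turn (42 without EKO replicate 2, 2 without WT replicate 2) and 2 over all probe sets. The number of the 29 genes with a higher EKO mean, 16 with all arrays, was 10 to 18 with each array left out, 10 being the value without WT replicate 3. The medians of the 2 sets ran from -0.090 to 0.10 and from -0.12 to 0.12. Of 423 single-gene values under the alternatives 396 kept their direction and 27, over 14 genes with differences of at most 0.34 in size, changed sign, none of them called; the cause was not tested. With the second highest probe set these were Hk1 (-0.0071), Pfkl (-0.058), Aldoc (-0.068), Slc16a1 (0.012), Egln3 (0.079) and P4ha1 (-0.16). With the mean over probe sets they were Pfkl (-0.0044), Pdk1 (-0.042) and P4ha1 (-0.022), with array weights Pfkl (-0.090) and Ldha (-0.018), and with a repeated quantile normalization Pfkl (-0.0093). With each array left out the differences ran from -0.23 to 0.18 for Pfkl, -0.090 to 0.094 for Ldha, -0.30 to 0.059 for Bnip3, -0.031 to 0.21 for Aldoc, -0.28 to 0.080 for Slc16a3, -0.17 to 0.0050 for Hif1a, -0.00018 to 0.14 for Pgam1, -0.016 to 0.22 for Slc2a1, -0.029 to 0.27 for Pdk1 and -0.062 to 0.18 for Epas1. Without changing sign they ran from -0.78 (without WT replicate 2) to -0.17 (without WT replicate 1) for Pfkm, -0.37 (without WT replicate 3) to -0.14 (without WT replicate 1) for Egln1, -0.54 (without WT replicate 3) to -0.20 (without WT replicate 2) for Egln3 and -0.38 (without WT replicate 3) to -0.12 (without WT replicate 1) for Slc16a1. Restricting the test to the upper 50% of means left out Slc2a3, Slc16a3 and Car9. The sample labels give replicate numbers but no pairing of the mice. Deviations of same-numbered EKO and WT arrays correlated with r of -0.074, -0.089 and -0.34, and no array correlated best with its own number. With 3 arrays per group, deviations from the group mean depend on each other, so these correlations cannot decide whether mice were paired. With the replicate number as a block 1 gene of all and 0 of the 29 passed. Signals near the lower quartile, 3.90 to 3.97, limit what can be said of Slc16a3 and of the dimmer probe sets.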
